A study of Homo sapiens with 21 samples.

Results

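The genes described here store fat in lipid droplets or release and burn it. They were fixed as 10 gene symbols, matched to the gene identifiers of the tables: PLIN2, PLIN3, HILPDA, DGAT1, DGAT2 and LPIN1 for storage, PNPLA2 and ABHD5 for lipolysis, and CPT1A and ACADVL for fatty acid oxidation. They are 10 of the 20970 genes with a row in any of the 4 expression tables. All 10 are in the tables of the knockdown and overexpression experiments and passed the filter on low values there, and 9 are in the table of the mutant cells, which holds no row for DGAT2.

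The study asked how METTL4, an enzyme that methylates adenine in DNA, takes part in the response of tumor cells to low oxygen. RNA-seq libraries were made from 2 established human lines, FADU from a head and neck tumor and BFTC909 from a urothelial tumor of the renal pelvis. In each line, cells with the control siRNA Scr-si were kept for 18 h in normoxia (18% O2) or hypoxia (1% O2), and cells with METTL4-si were kept in hypoxia, with 2 libraries per group. FADU cells in normoxia carried a control vector, a METTL4 vector or a vector for the long noncoding RNA RP11-390F4.3, with 2 libraries each, and FADU cells in hypoxia were 1 CRISPR control and 2 clones whose METTL4 had the DPPW motif of its catalytic site changed by prime editing. The labels speak of siRNA, whereas the methods of the study describe lentiviral short hairpin RNAs and selected clones. The overexpressing cells were stable transfectants, and each mutant clone was grown from a single cell, so each such line can carry differences of its own. No label says that libraries of a group came from separate cultures, so p-values measure the spread between these libraries, which may be technical.

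A lipid droplet is a core of triglyceride and cholesterol ester with a coat of proteins. DGAT1 and DGAT2 add the last fatty acid to make triglyceride, lipin-1 (LPIN1) makes the diacylglycerol they use, and the perilipins PLIN2 and PLIN3 coat the droplet. Adipose triglyceride lipase (PNPLA2) starts the breakdown of the core with its coactivator ABHD5, and HILPDA, a small protein made under hypoxia, inhibits that lipase. CPT1A carries fatty acids towards the mitochondrial matrix, where ACADVL performs the first step of the oxidation of long chains. Hypoxic tumor cells are known to accumulate lipid droplets, and HILPDA and PLIN2 are known targets of hypoxia-inducible factors.

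Each library held 17.8 to 25.4 M reads on genes. The hypoxia markers CA9, a carbonic anhydrase, and SLC2A1, the glucose transporter GLUT1, rose in both lines, CA9 from 2.33 and 2.55 to 31.0 and 37.8 in FADU and from 0.358 and 1.17 to 54.0 and 56.2 in BFTC909 (TMM-normalized CPM, a read count scaled to library size by the authors). METTL4 itself did not check the labels in FADU: it read 26.6 and 25.3 in Scr-si hypoxia and 24.2 and 27.1 in the libraries labelled METTL4-si (log2 difference -0.02, adjusted p = 0.90), and 19.0 and 15.6 against 14.4 and 12.2 in BFTC909 (-0.36, adjusted p = 0.072). Therefore every METTL4-si result below concerns the libraries labelled METTL4-si. In 3 libraries, breast luminal or epithelial markers stood apart. Whether they came from another cell type was not tested. Of 7 breast luminal markers, 5 had a row in the FADU table, and their summed value was 97.7 in FADU normoxia replicate 1 and 496 in FADU METTL4-si replicate 1, against 5.63 to 10.7 in the other 4 libraries, in which TFF1 was listed at 0. In BFTC909 METTL4-si replicate 2, GATA3, the only one of these markers in that table, read 128, and 4 epithelial markers summed to 1122, against 0.573 to 0.964 and 21.5 to 84.7 in the other 5. The part of these transcripts in the results was not tested, and differences between groups without the 3 libraries are given beside those they bear on. The epithelial markers were high in FADU (7 of 7 present, sums of 2472 to 7321), but EPCAM was at most 1.69 in the other BFTC909 libraries and KRT5, KRT19 and CDH1 had no row, whereas 5 of 7 fibroblast markers did (sums of 1030 to 4686, mostly COL1A2). Adipocyte markers, of which 4 of 8 had a row in FADU and 0 in BFTC909, summed to at most 9.99, immune markers to at most 6.16 and endothelial markers to at most 13.8, while fibroblast markers in FADU stayed at or under 6.64 except for 25.6 and 116 in the replicates 1 named above.

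Under hypoxia, the transcripts of a droplet coat protein, of the lipase inhibitor and of lipin-1 rose in both lines, while the acyltransferases and the lipase did not pass the test. Counting a gene as changed at a Benjamini-Hochberg adjusted p under 0.05 and at least 1.3-fold (limma on log2 of value + 1, a scale that understates the change of low genes), 3 of the 6 storage genes rose and 0 fell in each line. Of all genes tested, 9.73% rose and 9.65% fell in FADU, and 17.9% rose and 18.3% fell in BFTC909. The median log2 difference of the storage genes was 0.55 in FADU and 0.31 in BFTC909, against -0.03 and -0.02 over all genes. Without the marker libraries the counts were again 3 and 0 in each line. These are bulk cultures, so a lower level cannot be told apart from fewer cells that make the transcript.

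HILPDA (GRCh37 chr7:128095903-128098472, plus strand) read 8.77 and 8.76 in the normoxic FADU libraries and 25.03 and 27.7 in the hypoxic ones. The 2 groups lay far apart, with a log2 difference of 1.48 (SE 0.145, adjusted p = 0.00137). In BFTC909 it went from 9.76 and 10.9 to 44.9 and 49.5, a difference of 2.09 (SE 0.114, adjusted p = 2.9e-05). Normoxic levels of this inhibitor were alike in the lines, although the tables were normalized separately and levels across them are only set side by side. Without the marker libraries the FADU difference was 1.49.

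PLIN2 (chr9:19108373-19149288, minus strand) rose in both lines too. Its values were 14.4 and 16.0 in normoxia and 37.9 and 48.6 in hypoxia in FADU, a log2 difference of 1.44 (SE 0.144, adjusted p = 0.0015), or 1.37 without the marker library. In BFTC909 they were 200 and 221 against 1216 and 1227 (2.53, SE 0.103, adjusted p = 1.2e-05). The hypoxic BFTC909 libraries held the highest values of any storage gene in the 4 tables.

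LPIN1 (chr2:11817721-11967535, plus strand) rose in FADU from 48.7 and 50.7 to 86.8 and 96.8 (0.87, SE 0.0855, adjusted p = 0.0014), or by 0.84 without the marker library. The step in BFTC909 was smaller, from 52.4 and 50.8 to 67.3 and 67.9 (0.38, SE 0.0707, adjusted p = 0.00405), and lay at the edge of the 1.3-fold threshold. It was no longer past the threshold without BFTC909 normoxia replicate 2 (0.36) or hypoxia replicate 2 (0.38).

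PLIN3 (chr19:4838353-4867706, minus strand), a coat protein that also occurs free in the cytosol, read 41.8 and 41.4 against 47.9 and 49.8 in FADU and 123 and 125 against 135 and 142 in BFTC909. The groups did not overlap in either line, yet the differences of 0.22 (95% interval 0.03 to 0.42) and 0.16 (0.01 to 0.31) did not pass the adjusted test (adjusted p = 0.0858 and 0.0843). DGAT1, whose reads cannot be told from those of the opposite-strand gene HSF1 where they overlap if strand was not used in counting, read 15.8 and 14.6 against 11.1 and 12.2 in FADU (-0.36, adjusted p = 0.0934) and 9.31 and 9.86 against 11.5 and 11.4 in BFTC909 (0.23, adjusted p = 0.32). DGAT2 (chr11:75470557-75512580, plus strand) was near the lower limit of the data, at 1.12 to 1.54 in the 4 FADU libraries and 2.58 to 3.23 in the 4 BFTC909 libraries, and its intervals reached from -0.76 to 0.40 and from -0.59 to 0.53.

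The promoters of 7 members with an entry among the RefSeq promoter windows (12 windows, build GRCh38.p14) were searched. The search was for the core of the hypoxia response element, spelled ACGTG or GCGTG, on both strands, in the 250 bases before each annotated start. Of all 35116 windows of this length, 43.2% held at least 1 match. Among the member windows 6 of 12 did, in 5 of the 7 genes. PLIN2 held 4 matches, a number reached by 3.22% of all windows, and its ACGTG 69 to 65 bases before the start on the opposite strand overlaps the one at 68 to 64 as the palindrome CACGTG. PLIN3 held 3 matches, a number reached by 7.76% of all windows. PNPLA2 and CPT1A held 0, ABHD5 held 1 in each of 2 of its 3 windows, ACADVL 2 in 1 of 2 windows and LPIN1 1 in 1 of 3. The 2 ABHD5 windows overlap, and their match is the same site, counted in each. HILPDA and DGAT2 had no entry, and DGAT1 was not searched. A match is a string of letters and not a shown binding site, and its absence from this window says nothing of the factor. The 3 sequences below show the strongly induced coat gene, its weakly changed relative and the lipase, 5′ to 3′ on the strand of the gene, ending at the base before the start, with matches in capitals (chr9:19127493-19127742, chr19:4867668-4867917 and chr11:818664-818913).
PLIN2: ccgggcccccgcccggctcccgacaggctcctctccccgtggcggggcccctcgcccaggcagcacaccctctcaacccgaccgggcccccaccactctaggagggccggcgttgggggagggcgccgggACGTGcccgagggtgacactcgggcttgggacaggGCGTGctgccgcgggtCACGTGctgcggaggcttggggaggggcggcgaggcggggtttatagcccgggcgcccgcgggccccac
PLIN3: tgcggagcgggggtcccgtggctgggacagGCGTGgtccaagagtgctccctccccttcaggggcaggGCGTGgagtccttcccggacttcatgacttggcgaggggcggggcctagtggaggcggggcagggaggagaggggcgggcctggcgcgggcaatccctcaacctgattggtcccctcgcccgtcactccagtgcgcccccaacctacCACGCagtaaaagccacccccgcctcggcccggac
PNPLA2: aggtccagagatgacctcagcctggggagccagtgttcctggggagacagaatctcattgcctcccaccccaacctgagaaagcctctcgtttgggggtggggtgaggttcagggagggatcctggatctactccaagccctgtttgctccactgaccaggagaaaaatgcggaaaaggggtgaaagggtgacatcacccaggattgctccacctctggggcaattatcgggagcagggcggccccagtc

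On the lipolysis side, neither member passed the test in both lines. PNPLA2 (chr11:818914-825573, plus strand) read 25.5 and 22.6 in normoxia and 20.3 and 20.1 in hypoxia in FADU (-0.24, 95% interval -0.54 to 0.07, adjusted p = 0.216), and 24.3 and 23.5 against 25.9 and 31.0 in BFTC909 (0.24, -0.10 to 0.57, adjusted p = 0.215). The signs were opposite and both intervals included 0. In a joint limma fit of both lines, the difference of these responses, FADU minus BFTC909, was -0.47 (adjusted p = 0.127). The PNPLA2 responses were therefore not shown to differ. ABHD5 (chr3:43731600-43775863, plus strand) fell in BFTC909, from 39.7 and 39.8 to 18.0 and 18.1 (-1.10, SE 0.103, adjusted p = 0.000239). In FADU it read 12.5 and 14.6 against 11.7 and 11.3 (-0.22, adjusted p = 0.306). It overlaps ANO10 on the opposite strand. Of the 2 lipolysis genes, 0 passed the test in FADU, where 9.73% of all genes rose and 9.65% fell. In BFTC909 1, ABHD5, fell, where 17.9% of all genes rose and 18.3% fell.

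On the oxidation side, CPT1A (chr11:68522088-68611878, minus strand) fell in FADU, from 287 and 293 to 178 and 178 (-0.70, SE 0.058, adjusted p = 0.000822), a difference of -0.72 without the marker library. In BFTC909, where its level was lower by an order of magnitude, it read 22.6 and 22.8 in normoxia and 14.6 and 16.3 in hypoxia. The groups did not overlap, but the difference of -0.52 did not pass the test (95% interval -1.05 to 0.00, adjusted p = 0.0935), and it did pass when either METTL4-si library of BFTC909 was left out of the fit (-0.52 in each case). ACADVL (chr17:7120444-7128585, plus strand), which overlaps DLG4 on the opposite strand, stayed between 112 and 127 in the 4 FADU libraries and between 93.3 and 107 in the 4 BFTC909 libraries, with differences of 0.11 (-0.05 to 0.27) and -0.14 (-0.36 to 0.08).

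**Figure D1:**
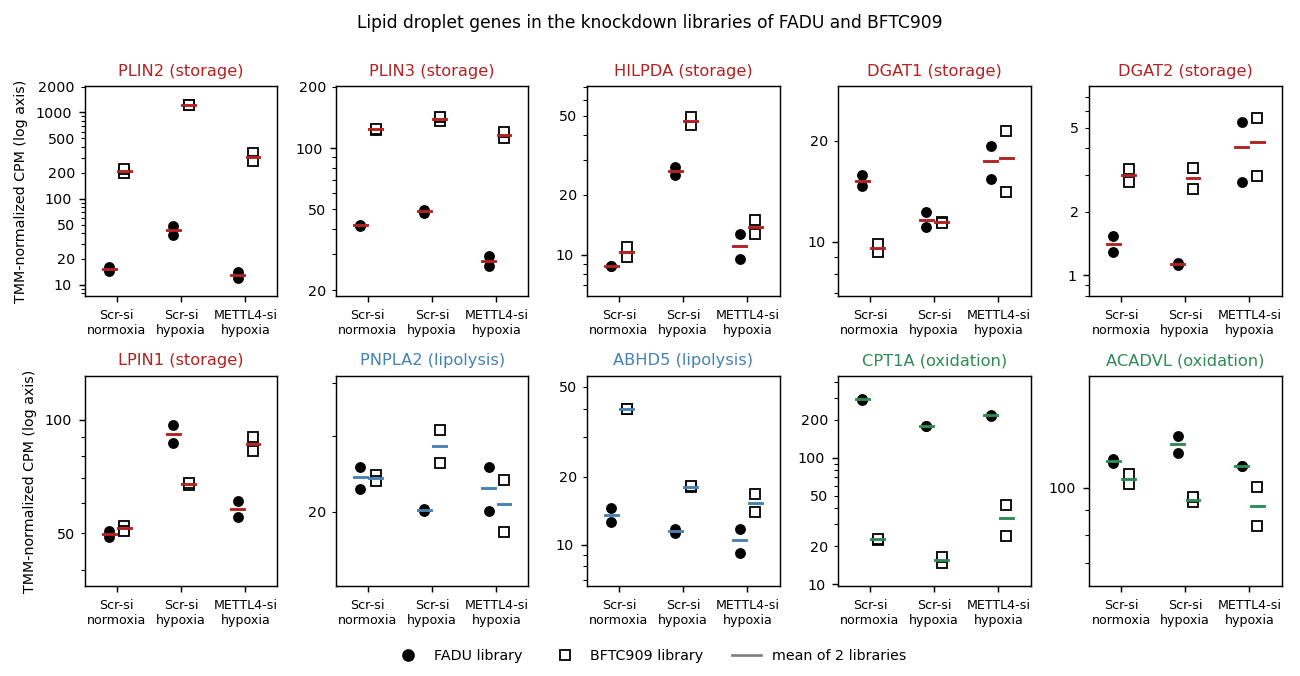
Values of the 10 genes in each of the 12 knockdown libraries, as TMM-normalized CPM on a log axis, with FADU as filled circles, BFTC909 as open squares and a line for the mean of 2 libraries. HILPDA and PLIN2 are higher in Scr-si hypoxia than in the other groups of the same line, ABHD5 drops in BFTC909 from 39.8 to 18.0 and CPT1A is at 178 or more in FADU and at 42.6 or less in BFTC909.

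The responses of the lines were compared in a joint fit of the 12 libraries (difference of log2 differences, FADU minus BFTC909). Of all genes tested, 12.8% had a higher and 11.0% a lower response in FADU. PLIN2 had the smaller response in FADU (-1.09, SE 0.188, adjusted p = 0.00275), as did HILPDA (-0.60, SE 0.194, adjusted p = 0.0449). LPIN1 had the larger one in FADU (0.49, SE 0.11, adjusted p = 0.0103), and ABHD5, whose fall passed the test in BFTC909 and not in FADU, differed by 0.88 (SE 0.181, adjusted p = 0.00665). The HILPDA difference was not past the threshold when any of the 4 normoxic or 4 hypoxic Scr-si libraries was left out (-0.68 to -0.53). For CPT1A the difference between the lines was -0.18 (95% interval -0.77 to 0.42), so its responses in the 2 lines were not shown to differ.

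In hypoxic libraries labelled METTL4-si, PLIN2 and HILPDA were lower than in Scr-si hypoxia in both lines. Of the 6 storage genes 4 fell and 2 rose in FADU, where 12.5% of all genes rose and 15.3% fell. In BFTC909 2 fell and 1 rose, where 13.2% of all genes rose and 11.7% fell. Without the marker libraries 4 fell and 1 rose in FADU, and 2 fell and 1 rose in BFTC909. This comparison uses the same Scr-si hypoxia libraries as the comparison with normoxia, so that a chance deviation of those libraries enters both with opposite sign. The hypoxia markers were lower in the METTL4-si libraries too. In FADU, CA9 read 1.87 and 2.22 and SLC2A1 353 and 364, close to the 371 and 352 of SLC2A1 in normoxia and far below its 1281 and 1409 in Scr-si hypoxia. Against normoxia, neither marker passed the test in FADU (-0.17, adjusted p = 0.399 for CA9 and -0.01, adjusted p = 0.932 for SLC2A1). In BFTC909, CA9 read 5.53 and 5.84 and SLC2A1 172 and 183, between normoxia and Scr-si hypoxia, and both were above normoxia (1.96, adjusted p = 0.000245 and 0.94, adjusted p = 6.53e-05). The part of this lower hypoxia marker level in the METTL4-si results was not tested.

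PLIN2 read 12.1 and 14.2 in FADU METTL4-si, below both Scr-si hypoxia values (-1.64, SE 0.144, adjusted p = 0.000609). In BFTC909 it read 338 and 275, against 1216 and 1227 in Scr-si hypoxia (-2.00, SE 0.103, adjusted p = 3.3e-05). HILPDA read 12.7 and 9.48 in FADU (-1.19, SE 0.145, adjusted p = 0.00168) and 12.7 and 14.9 in BFTC909 (-1.71, SE 0.114, adjusted p = 0.000102). Leaving out the marker libraries gave differences of -1.53 and -1.85 for PLIN2 and of -1.38 and -1.82 for HILPDA. In these libraries the sum of breast luminal markers was highest in replicate 1 of FADU, whose PLIN2 and HILPDA values lay on either side of those of replicate 2.

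PLIN3 fell in FADU, to 29.3 and 26.4 (-0.79, SE 0.0802, adjusted p = 0.000934), which lies below its normoxic level too. In BFTC909 it read 112 and 119 (-0.26, SE 0.0659, adjusted p = 0.0211), less than the 1.3-fold required. Without the marker library the FADU difference was -0.86. The difference between the lines passed its own test (-0.53, SE 0.0974, adjusted p = 0.00392). In that test, 9.12% of all genes were higher and 14.4% lower in FADU. LPIN1 went in opposite directions. It fell to 55.1 and 60.8 in FADU (-0.65, SE 0.0855, adjusted p = 0.00217), or by 0.58 without the marker libraries, whereas it read 90.0 and 82.8 in BFTC909, above both hypoxic controls by 0.35 (SE 0.0707, adjusted p = 0.00928), which misses the 1.3-fold threshold and passes it without BFTC909 METTL4-si replicate 2 (0.41). The lines differed by -1.0 (SE 0.11, adjusted p = 0.000277).

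The acyltransferases moved the other way. DGAT1 rose to 19.3 and 15.4 in FADU (0.53, SE 0.132, adjusted p = 0.0222) and to 14.1 and 21.4 in BFTC909 (0.57, SE 0.177, adjusted p = 0.0456). Neither call held when single libraries were left out. Without METTL4-si replicate 1 the FADU difference was 0.37, without METTL4-si replicate 2 the BFTC909 difference was 0.28, and neither passed the test. These METTL4-si replicates are marker libraries. Leaving out either Scr-si library of normoxia or hypoxia also ended the call (0.46 to 0.60 in FADU, 0.56 to 0.57 in BFTC909). DGAT2 read 5.34 and 2.76 in FADU (1.2, SE 0.244, adjusted p = 0.011), and the higher value again belongs to METTL4-si replicate 1. Without the marker libraries it was 0.82 and still past the threshold, but not without hypoxia replicate 1 (1.19) or 2 (1.2). In BFTC909 it read 2.95 and 5.59, with the higher value in replicate 2, and did not pass (0.39, -0.17 to 0.95), except without replicate 1 of METTL4-si (0.76).

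Among the lipolysis genes 0 of 2 passed in either line. Over all genes 12.5% rose and 15.3% fell in FADU, and 13.2% rose and 11.7% fell in BFTC909. PNPLA2 read 25.4 and 20.1 in FADU METTL4-si, overlapping the controls (0.15, -0.15 to 0.45). In BFTC909 it read 17.9 and 23.7 (-0.44, -0.78 to -0.11, adjusted p = 0.0516), and it passed without METTL4-si replicate 2, the marker library (-0.63). ABHD5 read 11.8 and 9.17 in FADU (-0.13, -0.47 to 0.21) and 16.7 and 13.9 in BFTC909 (-0.23, -0.47 to 0.01). Of the oxidation genes, CPT1A rose in BFTC909 to 24.2 and 42.6 (1.01, SE 0.224, adjusted p = 0.0131), with the higher value in the marker library, without which the difference was 0.62. That call was lost without hypoxia replicate 1 (0.94) or 2 (1.08). In FADU CPT1A read 215 and 219, higher by 0.29 (SE 0.058, adjusted p = 0.0108), which is under 1.3-fold. ACADVL differed by -0.14 (-0.30 to 0.01) and -0.05 (-0.26 to 0.17).

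**Figure D2:**
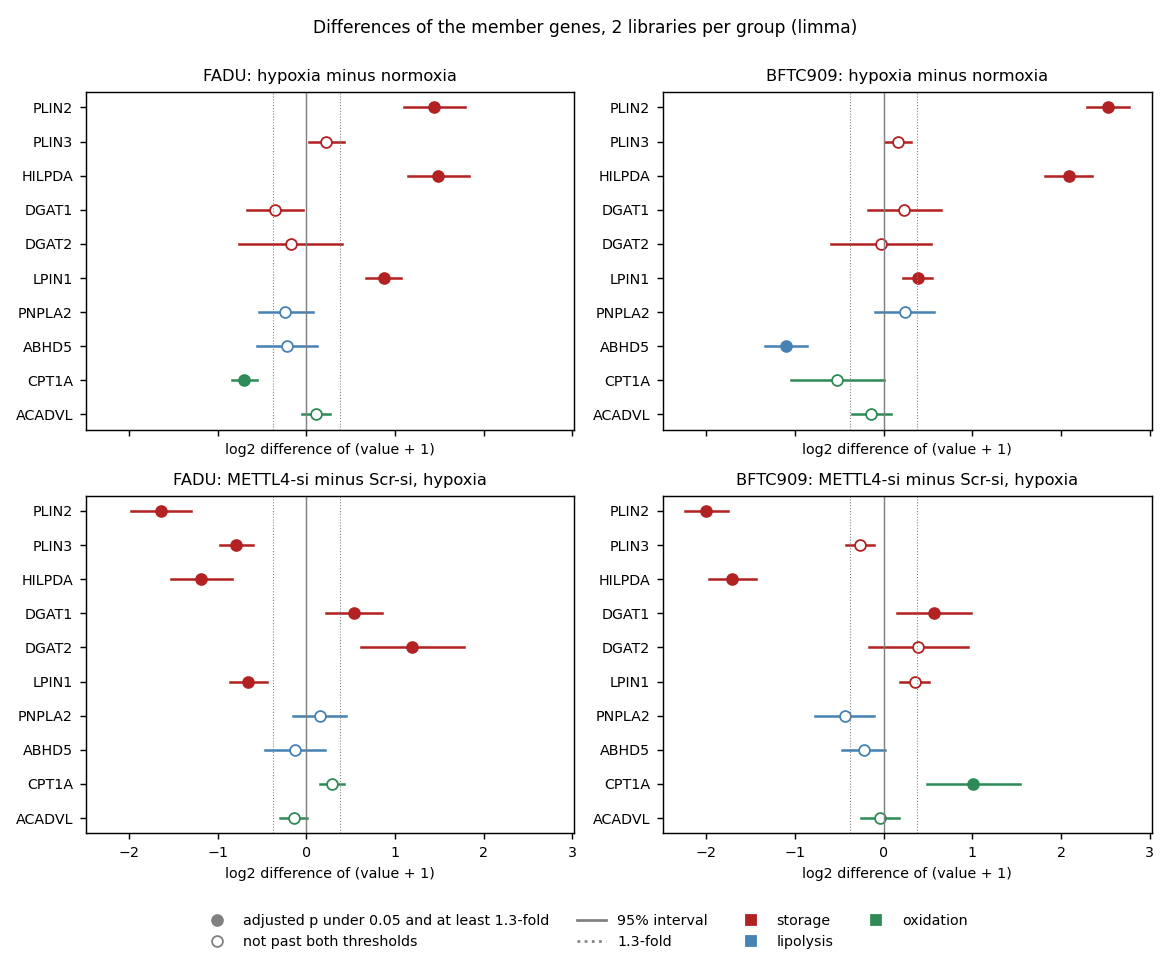
Log2 difference of (value + 1) for each gene in 4 comparisons, with its 95% interval, from limma fits with 2 libraries per group; filled points passed an adjusted p under 0.05 and 1.3-fold. PLIN2 and HILPDA lie to the right under hypoxia (1.44 and 1.48 in FADU) and to the left with METTL4-si (-1.64 and -1.19 in FADU), and PNPLA2 and ACADVL are open in all 4 panels.

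The hypoxic METTL4-si libraries were also set against normoxia. This comparison shares its libraries with both of the former. In FADU, PLIN2 differed from normoxia by -0.20 (95% interval -0.54 to 0.15) and HILPDA by 0.30 (-0.05 to 0.64). Past the thresholds were DGAT2 (1.02), PLIN3 (-0.57) and CPT1A (-0.41), 1 gene up and 2 down, where 8.13% of all genes rose and 13.5% fell. Without FADU normoxia replicate 2, none of these 3 passed, with differences of 0.94, -0.57 and -0.40, and DGAT2 did not pass either without normoxia replicate 1 (1.09) or a hypoxia library (1.02). The same 3 genes passed without the marker libraries (0.71, -0.63 and -0.42), and so did ABHD5, which moved from -0.35 to -0.61, or to -0.51 when METTL4-si replicate 1 alone was left out. HILPDA moved to 0.10 without the marker libraries and, at 0.49, passed without METTL4-si replicate 2. In BFTC909, where 24.4% of all genes rose and 23.2% fell, PLIN2 stood above normoxia by 0.53 (SE 0.103, adjusted p = 0.00364), HILPDA by 0.38 (SE 0.114, adjusted p = 0.0239), LPIN1 by 0.73 and DGAT1 by 0.80, and ABHD5 was lower by a log2 difference of -1.33. The HILPDA difference did not pass without any 1 of 5 libraries, namely either normoxia (0.30 and 0.46) or hypoxia replicate (0.38 in each case) or METTL4-si replicate 2 (0.27). Without that last library, which carried the markers, DGAT1 was at 0.51, PLIN2 at 0.68, LPIN1 at 0.79 and ABHD5 at -1.2, all 4 still past the thresholds, and PNPLA2 passed as well (-0.40, against -0.21 with it). Without METTL4-si replicate 1, DGAT2 (0.73) and CPT1A (0.88) passed, which they did not with it (0.36 and 0.49) or without replicate 2 (-0.008 and 0.092).

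The balance between storage and lipolysis transcripts was read as a ratio within a library, of values per kb of exon (merged exons of GENCODE v44 on GRCh37, not the authors' annotation), which is free of library scaling. The ratio of HILPDA, the inhibitor, to PNPLA2, its target, was 0.637 and 0.717 in normoxic FADU, 2.28 and 2.55 in hypoxia and 0.928 and 0.874 in hypoxic METTL4-si. In BFTC909 it was 0.743 and 0.861, then 3.21 and 2.95, then 1.31 and 1.16. Thus per kb, in both lines, the inhibitor transcript exceeded the lipase transcript in Scr-si hypoxia and not in normoxia. PLIN2 to PNPLA2 went from 0.431 and 0.541 to 1.43 and 1.85 and back to 0.364 and 0.541 in FADU, and from 6.29 and 7.18 to 35.9 and 30.3 and then 14.4 and 8.87 in BFTC909. The ratio of the coat proteins PLIN2 and PLIN3 rose from 0.188 and 0.211 to 0.433 and 0.534 in FADU. In BFTC909 it rose from 0.887 and 0.968 to 4.92 and 4.72. The side of equal levels on which a ratio falls depends on the exon lengths used, here 5.011 kb for PLIN2 and 2.739 kb for PLIN3. Not divided by length, PLIN2 was already above PLIN3 in normoxic BFTC909 (means of 211 and 124). ABHD5 to PNPLA2 was 0.83 and 0.86 in normoxic BFTC909 and 0.352 and 0.297 in hypoxia, and between 0.25 and 0.327 in the corresponding 4 FADU libraries. No test was run on these ratios, which rest on 2 libraries per group.

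**Figure D3:**
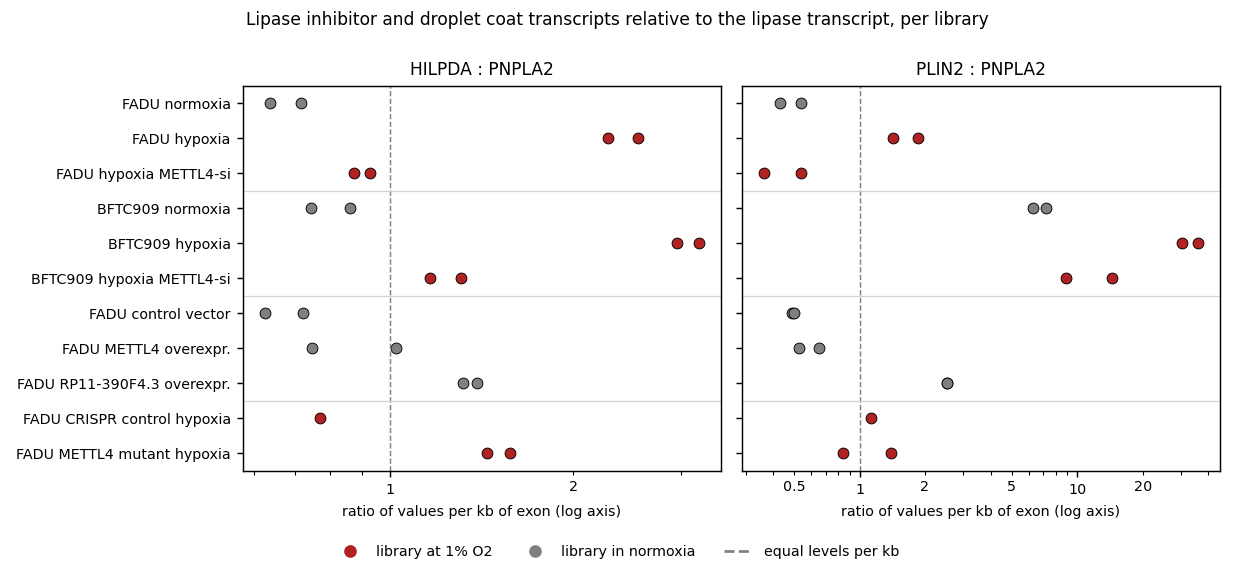
Ratio of HILPDA to PNPLA2 (left) and of PLIN2 to PNPLA2 (right) per kb of exon in each of the 21 libraries, on log axes, with red points at 1% O2, grey points in normoxia and a dashed line at equal levels. Scr-si hypoxia lies right of the line in both lines (2.28 to 3.21 for HILPDA), the CRISPR control in hypoxia lies left of it for HILPDA at 0.768, and the RP11-390F4.3 libraries lie right of it in normoxia at 1.32 and 1.39.

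Per kb of exon, the order of the members differed between the lines. In normoxic FADU, CPT1A led at a mean of 44.1, followed by ACADVL at 23.5, PLIN3 at 15.2, PNPLA2 at 6.27, HILPDA at 4.23, LPIN1 at 4.19, DGAT1 at 3.68, PLIN2 at 3.03, ABHD5 at 1.80 and DGAT2 at 0.179. The libraries of HILPDA and LPIN1 overlapped. In normoxic BFTC909, PLIN3 at 45.3 and PLIN2 at 42.0 led, followed by ACADVL at 21.6, PNPLA2 at 6.24, ABHD5 at 5.27, HILPDA at 5.0, LPIN1 at 4.35, CPT1A at 3.45, DGAT1 at 2.32 and DGAT2 at 0.377. Here ABHD5 and HILPDA overlapped. Under hypoxia PLIN2 stood at 244 per kb in BFTC909 and at 8.63 in FADU.

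In addition, 84 other genes of droplet coats, triglyceride synthesis, lipolysis, fatty acid uptake and oxidation were followed. Under hypoxia 6 of 63 tested in FADU rose and 9 fell, where 9.73% of all genes rose and 9.65% fell. In BFTC909 11 of 58 rose and 9 fell, where 17.9% of all genes rose and 18.3% fell. The medians were 0.04 and 0.03, against -0.03 and -0.02 over all genes. Without the marker library, 7 rose and 11 fell in FADU. Of the droplet proteins 1 rose and 2 fell of 9 in FADU and 1 rose and 1 fell of 7 in BFTC909. AUP1, which recruits a ubiquitin-conjugating enzyme to droplets, fell in FADU from 132 and 122 to 95.3 and 98.3 (-0.39, adjusted p = 0.00984), and LDAF1, a partner of seipin in droplet formation, fell in BFTC909 from 8.10 and 7.55 to 6.07 and 5.40 (-0.39, adjusted p = 0.0286).

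Of the synthesis genes 2 rose and 2 fell of 15 in FADU and 3 rose and 4 fell of 16 in BFTC909. LPIN3, a relative of lipin-1, rose in both (0.64 and 0.59), and GPAM, the mitochondrial enzyme that begins glycerolipid synthesis, fell in both (-0.58 and -0.40). AGPAT4 rose in FADU from 11.9 and 12.5 to 24.5 and 27.0 (1.02), and ACSL3, an acyl-CoA synthetase found on droplets, rose in BFTC909 from 238 and 241 to 412 and 391 (0.74), as did LPIN2 (0.78). GPAT3, an acyltransferase of the endoplasmic reticulum, was singled out after its values were seen, as it is below the level required of named genes. It fell from 3.45 and 4.02 to 0.584 and 0.958 in FADU (-1.42, adjusted p = 0.00214) and from 5.42 and 6.12 to 1.69 and 1.34 in BFTC909 (-1.43, adjusted p = 0.000381), and read 4.87 and 4.36, and 4.64 and 5.74, with METTL4-si.

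Under hypoxia 9.73% of all genes rose and 9.65% fell in FADU, and 17.9% rose and 18.3% fell in BFTC909. Of 8 other lipolysis genes in each line, 0 rose and 2 fell in FADU and 2 rose and 2 fell in BFTC909. In FADU these were DAGLA, which cleaves diacylglycerol, at 17.0 and 15.7 against 7.77 and 7.66 (-0.99), and ABHD6, a monoacylglycerol lipase, at 9.56 and 11.3 against 5.44 and 5.43 (-0.83). In BFTC909 the monoacylglycerol lipase MGLL fell from 163 and 157 to 60.0 and 66.5 (-1.33, adjusted p = 3.01e-05), G0S2, another inhibitor of PNPLA2, fell from 22.0 and 19.9 to 13.4 and 14.5 (-0.55), and the lysosomal lipase LIPA rose from 133 and 142 to 198 and 194 (0.51). G0S2 and HILPDA, which inhibit the same lipase, thus moved in opposite directions in BFTC909.

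Of the uptake genes 2 rose and 2 fell in each line, of 9 and of 7. For these and the oxidation genes, the shares over all genes were 9.73% up and 9.65% down in FADU. In BFTC909 they were 17.9% up and 18.3% down. VLDLR, the receptor for very low density lipoprotein, rose in FADU from 11.8 and 13.4 to 35.9 and 38.8 (1.5, adjusted p = 0.000403) and in BFTC909 from 104 and 124 to 587 and 598 (2.38, adjusted p = 2.81e-05), and with METTL4-si it fell by 1.07 and by 1.35. FABP5, a fatty acid binding protein, rose in FADU from 63.8 and 56.4 to 118 and 114 (0.94) and fell in BFTC909 from 92.2 and 93.3 to 46.0 and 47.7 (-0.97), a difference between the lines of 1.91 (adjusted p = 2.89e-05). The transporter SLC27A2 fell in FADU (-1.16) and SLC27A1 rose in BFTC909 (0.53). Of the oxidation genes 1 rose and 1 fell of 22 in FADU, and 3 rose and 0 fell of 20 in BFTC909. ACADS, for short chains, rose in both (0.55 and 0.48), ECI1, an enoyl-CoA isomerase, fell in FADU (-0.45), and the receptors PPARA (0.44) and PPARD (0.39) rose in BFTC909.

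**Figure D4:**
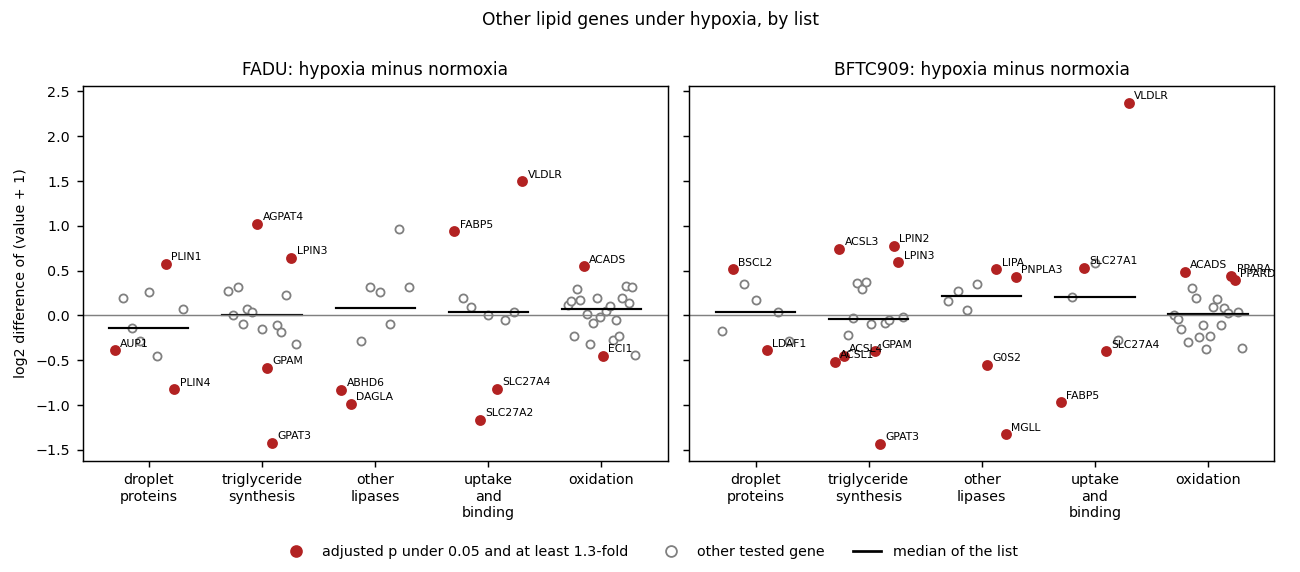
Log2 difference of (value + 1), hypoxia minus normoxia, of each tested gene of the 5 further lists in FADU (left) and BFTC909 (right), with genes past both thresholds in red and named, other genes open and a line for the median of a list. VLDLR is the highest point in both panels (1.5 and 2.38), GPAT3 lies at the bottom of both (-1.42 and -1.43) and the list medians lie between -0.14 and 0.21.

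With METTL4-si, 0 of 22 genes of the oxidation list rose and 8 fell in FADU, where 12.5% of all genes rose and 15.3% fell. Their median was -0.30 against 0.02 over all genes. Without the marker libraries 0 rose and 10 fell. In BFTC909 2 of 20 rose and 0 fell, where 13.2% of all genes rose and 11.7% fell, with a median of 0.06. HADHB, a subunit of the trifunctional protein of mitochondrial oxidation, was picked after its values were seen as the gene of this list with the largest fall: it read 89.2 and 95.8 in Scr-si hypoxia and 50.3 and 49.0 in METTL4-si (-0.88, adjusted p = 0.000674), but 51.4 and 52.5 against 49.2 and 43.3 in BFTC909 (-0.17, adjusted p = 0.161), and the lines differed (-0.72, adjusted p = 0.00181). ACADS fell in FADU (-0.65) and not to a degree that passed in BFTC909 (0.18, adjusted p = 0.41). Thus CPT1A, up by 0.29 in these FADU libraries, went against the list. Among the other lipolysis genes 4 of 8 rose and 0 fell in FADU, namely ABHD6 (1.37), DAGLA (0.83), DAGLB (0.76) and PNPLA3 (0.65), the last 2 named after their values were seen. In BFTC909 only G0S2 rose (0.48). Of the droplet list 5 rose and 1 fell of 9 in FADU and 1 rose and 1 fell of 7 in BFTC909, of the synthesis list 3 and 3 of 15 and 3 and 2 of 16, and of the uptake list 2 and 2 of 9 and 3 and 1 of 7. When the marker libraries were left out, 5 of the synthesis genes rose and 3 fell and 4 of the lipolysis genes rose and 1 fell in FADU, while in BFTC909 2 of the lipolysis genes rose and 0 fell and 3 of the uptake genes rose and 2 fell. Over the 5 lists this gave 16 up and 17 down of 63 in FADU and 11 up and 5 down of 58 in BFTC909.

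In FADU cells that overexpressed METTL4 in normoxia, the droplet coat and inhibitor transcripts were not past both thresholds, while lipin-1 fell. METTL4 read 35.4 and 32.7 with the control vector and 158 and 139 with the METTL4 vector, and CA9 rose from 0.906 and 0.744 to 9.39 and 9.15. Of the storage genes 1 rose and 2 fell, of the lipolysis genes 0 changed and of the oxidation genes 1 fell. Among all genes 8.00% rose and 10.5% fell. LPIN1 went from 47.5 in each control to 20.6 and 17.9 (-1.26, SE 0.0694, adjusted p = 8.83e-09), the opposite sign to its rise under hypoxia in Scr-si cells. PLIN2 read 13.6 and 13.2 against 14.3 and 15.3 (0.13, 95% interval -0.02 to 0.28), and HILPDA 7.20 and 7.86 against 8.35 and 9.88 (0.24, 0.02 to 0.47, adjusted p = 0.0807). PLIN3 read 33.2 and 36.4 against 42.9 and 39.6 (0.24, adjusted p = 0.00814), which is under 1.3-fold. DGAT1 fell from 11.4 and 12.3 to 8.90 and 8.16 (-0.43, adjusted p = 0.00608) and DGAT2 rose from 0.811 and 1.02 to 1.59 and 1.81 (0.50, adjusted p = 0.0199). On its control libraries alone, DGAT2 would not have passed the filter on low values. It entered the test through overexpressing libraries, where it was higher, so its call is weak support. The DGAT1 call was lost without control replicate 2 (-0.38) or METTL4 replicate 2 (-0.37), and the DGAT2 call without control replicate 1 (0.42) or METTL4 replicate 1 (0.56) or 2 (0.44). CPT1A fell from 274 and 278 to 209 and 204 (-0.42, SE 0.0418, adjusted p = 3.45e-06). PNPLA2 (-0.10, -0.28 to 0.07), ABHD5 (0.17, -0.01 to 0.35) and ACADVL (-0.16, -0.26 to -0.07) were not past both thresholds.

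In cells that overexpressed RP11-390F4.3, still in normoxia, 4 of the 6 storage genes rose and 0 fell, with a median of 0.72 against 0.01 over all genes, of which 16.5% rose and 12.5% fell. PLIN2 read 81.6 and 80.8, against 13.6 and 13.2 with the same control vector (2.51, SE 0.0684, adjusted p = 5.62e-12). HILPDA read 17.6 and 18.4 (1.15, SE 0.104, adjusted p = 8.06e-07), PLIN3 65.3 and 65.2 (0.89, SE 0.0628, adjusted p = 7.85e-08) and DGAT2 1.61 and 2.01 (0.55, SE 0.153, adjusted p = 0.00817). Each of these values lay above both controls. DGAT2, 1 of these 4 genes, passed the filter on low values only with the overexpressing libraries, where it was higher, so its call is weak support. The DGAT2 call was lost without control replicate 1 (0.47) or without the RP11-390F4.3 library at 2.01 (0.45). The sum of breast luminal markers was 24.6 in this last library and 6.20 in the other, where PLIN2 read 81.6 and HILPDA 17.6. LPIN1 read 56.8 and 53.9 (0.22, 0.07 to 0.37, under 1.3-fold), which left it above its level with METTL4. DGAT1 read 11.6 and 14.0 (0.10, -0.13 to 0.33).

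Of the lipolysis genes 0 passed, with PNPLA2 at 24.6 and 24.5 (0.23, adjusted p = 0.028) and ABHD5 at 15.3 and 15.5 (0.27, adjusted p = 0.0151), both higher than both controls and under 1.3-fold. CPT1A fell to 205 and 203 (-0.43, SE 0.0418, adjusted p = 1.62e-06), as far as with METTL4. ACADVL read 145 and 143 against 109 and 113 (0.37, SE 0.0451, adjusted p = 1.38e-05), just under 1.3-fold and past it without control replicate 2 (0.40) or without 1 of the RP11-390F4.3 libraries (0.38). Of the further lists, 5 of 63 genes rose and 15 fell with METTL4, where 8.00% of all genes rose and 10.5% fell. With RP11-390F4.3, 12 of 63 rose and 10 fell, where 16.5% of all genes rose and 12.5% fell. With METTL4, ACSL3 fell from 369 and 339 to 165 and 163 (-1.10) and LIPA from 69.7 and 67.6 to 37.4 and 38.4 (-0.84). VLDLR rose with METTL4 (0.46) and with RP11-390F4.3 (1.04), FABP5 rose by 0.80 with each, and MGLL rose from 0.811 and 1.53 to 3.43 and 3.53 and to 6.40 and 6.47.

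The mutant cells were all in hypoxia, with 1 control library, so no test was run and values are given as they stand. The METTL4 transcript, which the edit need not change, read 12.5 in the control, 15.9 in clone 1 and 10.6 in clone 2. Of 9 members, 0 were higher and 3 were lower by at least 1.3-fold in both clones, where 8.94% of all genes were higher and 11.8% lower. These 3 were PLIN2, at 31.8 against 19.3 and 14.1, LPIN1, at 52.0 against 21.1 and 28.9, and PNPLA2, at 21.6 against 10.6 and 12.9. HILPDA stood at 8.98 in the control, with 8.28 in clone 1 and 11.0 in clone 2. CA9 read 29.8 against 10.4 and 15.2. PLIN3 (29.8 against 25.2 and 25.9), DGAT1 (7.07 against 6.59 and 7.08), CPT1A (121 against 130 and 136) and ACADVL (109 against 121 and 100) stayed within 1.3-fold in each clone. ABHD5 was higher in clone 1 only (5.76 against 8.40 and 5.87). Within these libraries HILPDA to PNPLA2 per kb was 0.768 for the control against 1.45 and 1.58, and the lipase transcript was lower in both clones. Of the 63 further genes measured there, 4 were higher and 9 lower in both clones, among the lower LIPA (51.6 against 22.5 and 21.7), ACSL3 (211 against 127 and 125), SLC27A1 (5.95 against 2.32 and 1.98) and AGPAT4 (15.3 against 10.4 and 8.07), and among the higher GPAM (12.04 against 19.6 and 17.6) and DAGLA (2.94 against 5.87 and 4.88).

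**Figure D5:**
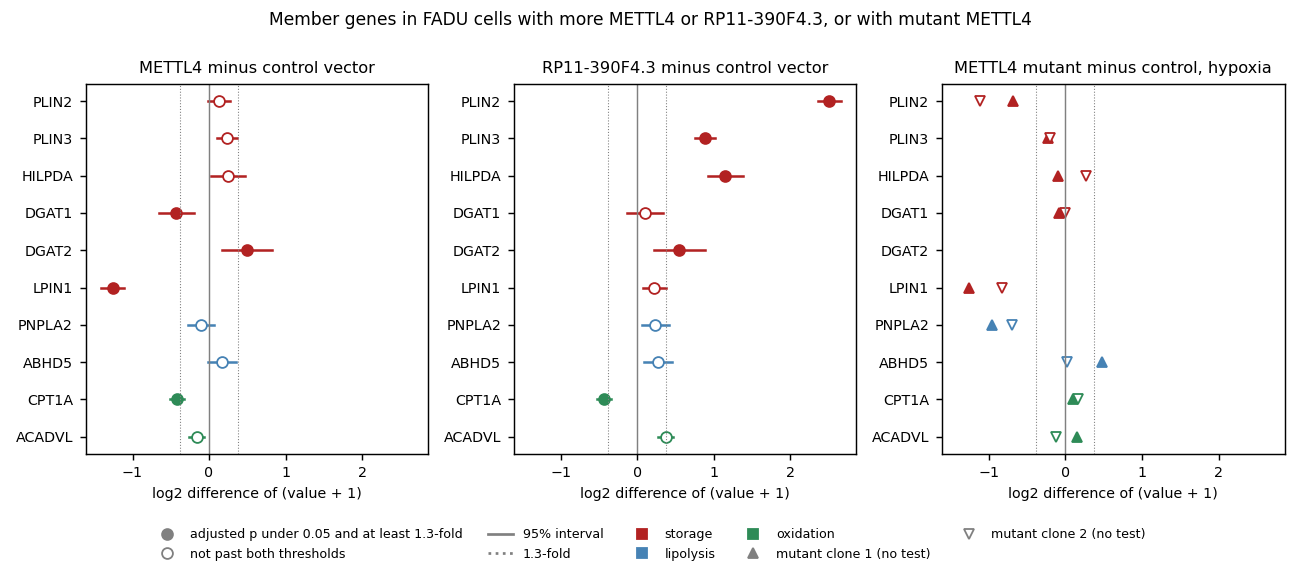
Log2 difference of (value + 1) of the members in FADU cells with METTL4 (left) or RP11-390F4.3 (middle) against the control vector, with 95% intervals and filled points past both thresholds, and in the 2 METTL4 mutant clones against 1 control library (right, triangles, no test, no DGAT2). PLIN2 is at 2.51 with RP11-390F4.3 and 0.13 with METTL4, LPIN1 is at -1.26 with METTL4, and PLIN2, LPIN1 and PNPLA2 lie left of the 1.3-fold line in both clones.

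Finally, the genes whose pattern over the 12 knockdown libraries was most like those of HILPDA and PLIN2 were listed, by the root mean square difference of log2(value + 1), centred for each gene within each line, so that a difference in level between the lines does not enter. No p-value is given, since the libraries share treatments. For HILPDA these were GPR146 (0.163), ANKZF1 (0.178), SPAG4 (0.197), ARL10 (0.21) and INSIG2 (0.21), against a median of 0.836 over 13595 genes. For PLIN2 they were FAM162A (0.094), INSIG2 (0.155), RORA (0.198), TRPA1 (0.212) and SLC2A1 (0.231), against a median of 0.971.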

How the data were processed

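RNA was measured by RNA-seq (ribosomal RNA depletion, paired reads) in 21 libraries of human cell lines. In the study, Trim Galore removed adapters, HISAT2 placed the reads on hg19 and htseq-count summed them per gene. Versions, annotation and strand setting are not given in the sources used here. The deposited values are a signal per gene, CPM that the authors scaled with edgeR's TMM, separately for each of 4 tables (19505, 17232, 18316 and 15719 genes, of which 18887, 16721, 17763 and 15308 had a symbol). Tables of the authors' own comparisons, which hold fold changes and p-values, were not used.

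In the knockdown and overexpression tables, 100% of the low values were whole multiples of the value of 1 read (tolerance 0.01 read), which gave 19.0 to 25.4 M reads on genes per library. In the mutant table, rows that name no gene held 40.9 to 43.0% of the reads and were left out, which left 17.8 to 20.1 M. Depth limits DGAT2 most, at a value near 1.

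Genes that reached a value of 1 in 2 or more libraries were tested on log2(value + 1) with limma 3.58.1 (trended moderation, R 4.3.3), with the 3 groups of a table sharing 1 estimate of spread, and differences between lines in a joint fit of 12 libraries. A gene was called at an adjusted p under 0.05 over all genes (Benjamini-Hochberg, two-sided) and 1.3-fold. The study's own criterion, an unadjusted p and 1.3-fold, was an alternative, as were edgeR 4.0.16 on the recovered reads, other pseudocounts (0.1 and 5), filters (none, or a mean of at least 5), scaling by medians, fits without the trend or of the compared groups alone, a 2-fold threshold and leaving out libraries. The procedure was also run on simulated reads. These had the same dispersion for all genes and no marker libraries, so they do not give error rates for the real libraries. Replicates differed by more than counting noise (chi-square per degree of freedom of 2.11 to 28.9), so none was treated as 1 library deposited in duplicate, which does not show that they came from separate cultures. Tables and figures were made with Python 3.11.15, numpy 2.4.6, pandas 2.3.3 and matplotlib 3.10.9.

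Groups came from the sample labels. The columns named MAHAC were assigned to the RP11-390F4.3 group by elimination, with no sample within it, and no value is given for RP11-390F4.3 itself. Same-numbered libraries did not deviate together beyond 1 pair of groups (correlations of -0.0652 to 0.154, and 0.648 for FADU normoxia and METTL4-si), so a shared replicate number was not treated as a pairing. The members, lists and tests were chosen with earlier results of these data known. From each of the 5 further lists, up to 3 genes per line with the largest hypoxia difference were named, among those called, with a mean of at least 5 and groups that did not overlap. Lengths and coordinates come from GENCODE v44 lifted to GRCh37, and promoter windows from RefSeq on GRCh38.p14.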

Additional observations from a re-analysis of the deposited data

Results flagged for a closer look

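The joint fit of both lines (limma, adjusted over all genes, difference of log2 differences, FADU minus BFTC909, 2 libraries per group) singled out 6 responses of the members that differed between the lines by the test of the difference itself. Under hypoxia, 12.8% of all genes tested had a higher and 11.0% a lower response in FADU. The members were PLIN2 at -1.09 and HILPDA at -0.60, both with the larger rise in BFTC909. The others were LPIN1 at 0.49, with the larger rise in FADU, and ABHD5 at 0.88, with the fall in BFTC909. Without the 3 libraries that carried breast luminal or epithelial markers, the differences were -1.16, -0.60, 0.46 and 0.78 in this order. The HILPDA call did not hold in each fit that left out 1 library (-0.68 to -0.53). For METTL4-si, 9.12% of all genes tested had a higher and 14.4% a lower difference in FADU. The members were PLIN3 at -0.53, with the larger fall in FADU, and LPIN1 at -1.0, lower in FADU and higher in BFTC909. Without the 3 libraries these were -0.55 and -0.99. In FADU, METTL4-si libraries had no lower METTL4 level than Scr-si ones, so the METTL4-si differences compare libraries by their labels. The 2 tables were normalized separately, and cell line and table cannot be told apart.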

How the results depend on the processing

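Of the values for single members under all alternatives, 1738 counted as unchanged, and 84 lost and 50 gained a call. A further 21 changed sign, none of them called in either setting. An unchanged value with a test kept its direction and its side of the thresholds. In the mutant clones, an unchanged value moved by less than the standard deviation of the 2 clones, whatever its side of the thresholds. A clone taken alone cannot move that far, and calls lost there at 2-fold count as unchanged. PLIN3 in the mutant clones (no test) moved to -0.187 with a pseudocount of 5. With median centring, DGAT2 went to 0.041 for BFTC909 hypoxia and DGAT1 to 0.027 for the difference in METTL4-si effect. Without the 3 marker libraries, PNPLA2 went to -0.01 for FADU METTL4-si, DGAT2 to -0.008 for BFTC909 METTL4-si against normoxia, and DGAT1, ABHD5 and ACADVL to 0.094, -0.196 and 0.035 for the difference in METTL4-si effect. Leaving out 1 library turned the sign within -0.01 to 0.314 for PNPLA2 and -0.297 to 0.031 for ABHD5 in FADU METTL4-si, -0.151 to 0.089 for DGAT2 in BFTC909 hypoxia, -0.177 to 0.086 for ACADVL in BFTC909 METTL4-si, -0.247 to 0.077 for PNPLA2 (FADU) and -0.008 to 0.729 for DGAT2 (BFTC909) in METTL4-si against normoxia, -0.024 to 0.224 for DGAT1 with RP11-390F4.3, and -0.323 to 0.252, -0.07 to 0.259 and -0.23 to 0.033 for DGAT1, ABHD5 and ACADVL in the difference in METTL4-si effect. The number of members called was 4 for hypoxia in each line, 6 and 4 for METTL4-si in FADU and BFTC909, 3 and 5 for METTL4-si against normoxia, 4 and 5 for METTL4 and RP11-390F4.3 overexpression, and 4 and 2 for the differences between lines in hypoxia and METTL4-si. With a 2-fold threshold it was 2 for FADU hypoxia, 3 for FADU METTL4-si, 1 in each line for METTL4-si against normoxia, 1 for METTL4 and 2 for RP11-390F4.3 overexpression, 1 for each difference between lines and 0 instead of 3 for the mutant clones. A pseudocount of 5 gave 2 for METTL4 overexpression. The difference in METTL4-si effect was the least stable, with 4 members under a pseudocount of 5 or median centring and 5 with an unadjusted p or without the 3 marker libraries. Leaving out 1 library gave 4 to 4 for FADU hypoxia, 4 to 6 for FADU METTL4-si, 3 to 5 for BFTC909 hypoxia, 2 to 5 for BFTC909 METTL4-si, 0 to 4 and 4 to 7 for METTL4-si against normoxia in FADU and BFTC909, 2 to 4 and 4 to 6 for METTL4 and RP11-390F4.3 overexpression, and 3 to 5 and 2 to 5 for the differences in hypoxia and METTL4-si. Where this left a single sample in a group, that sample was assumed to vary like the other groups. The causes were not tested. edgeR on whole reads gave the same member counts in the 8 comparisons within a table and called 3198 and 5497 genes for hypoxia in FADU and BFTC909.

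With the replicate number as a block, the member counts were 4 and 5 for hypoxia, 6 and 5 for METTL4-si, 3 and 6 for METTL4-si against normoxia, 4 for METTL4 overexpression, and 4 and 4 for the differences between lines. No paired analysis was possible for RP11-390F4.3 because the numbers 1 and 2 that end its column names are not tied to a sample by any label, nor for the mutant clones because there was 1 control.

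Among all genes, a 2-fold threshold lowered the counts to 517 of 3163 and 877 of 5382 for hypoxia in FADU and BFTC909, 673 of 4534 and 724 of 3704 for METTL4-si, 161 of 3531 and 1484 of 7085 against normoxia, 406 of 2894 and 523 of 4539 for METTL4 and RP11-390F4.3, and 637 of 3235 and 643 of 3193 for the differences between lines. A pseudocount of 5 gave 1621 and 2607 for METTL4 and RP11-390F4.3, and a mean of at least 5 gave 1922 and 2964. Fitting only the compared groups gave 2328 for FADU METTL4-si against normoxia. Leaving out 1 library lowered FADU hypoxia to 752 at the lowest. Centring libraries on their medians moved the share of higher calls from 49.6% to 60.4% for BFTC909 hypoxia, from 53.1% to 37.2% for BFTC909 METTL4-si, from 56.9% to 41.2% for RP11-390F4.3 and from 38.8% to 49.4% for the difference in METTL4-si effect.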
